A study of Mus musculus with 8 samples.

Results

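The expression of 10 genes that mark stem cells and early progenitors in fetal hematopoiesis was examined in S0 cells of the fetal liver. They were chosen by name, as 4 cell surface proteins (Cd34, Cd48, Adgrg1 and Procr), 5 DNA-binding regulators of transcription (Hlf, Myb, Runx1, Meis1 and Mecom) and the chromatin protein Hmga2. All 10 were found by symbol among the 52636 genes of the count table, and all 10 were among the 17378 genes with enough counts to be tested.

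The libraries came from E12.5 mouse embryos in a C57BL/6J background, 4 of them labelled wild type (WT) and 4 labelled as double knockout of Vps13a and Vps13c (DKO), 2 genes that encode bridge-like lipid transport proteins. In DKO embryos both genes were lost in the whole body: the Vps13a-/- allele had been made by breeding first to FLP and then to β-actin-Cre mice, and Vps13c was Vps13c-/-. S0 cells are live cells that carry neither CD71 nor Ter119 and are left after removal of cells that stain for lymphoid and myeloid lineage proteins; none of the 10 genes encodes a protein used in that sort. The study obtained DKO embryos from intercrosses of Vps13a+/-/Vps13c-/- mice, a cross that yields no WT embryo, so genotype and litter cannot be told apart. The labels do not say whether a library is 1 embryo, so p-values measure the spread between these libraries, which may in part be technical.

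Hematopoietic stem cells seed the fetal liver at midgestation, expand there and give rise to erythroid, myeloid, lymphoid and megakaryocytic progenitors. Runx1 and Myb are needed for the onset of definitive hematopoiesis, Meis1, Hlf and Mecom are factors of the stem cell state, and Hmga2 belongs to the fetal program that Lin28b sustains by blocking let-7 microRNAs. Cd34, Adgrg1 and Procr are carried by stem cells and early progenitors, whereas Cd48 is carried by most progenitors and by mature leukocytes but by few stem cells. Cd34 and Procr are also made by endothelium, and Hlf by hepatocytes.

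Total counts ranged from 42114489 to 50886469 in WT libraries and from 36981439 to 42587815 in DKO libraries. Vps13a was lower in DKO, with a log2 fold change of DKO over WT (log2FC) of -1.29, a standard error (SE) of 0.17 and an edgeR adjusted p of 0.00247, while Vps13c, counted over the whole gene, was at 0.49 (SE 0.24, adjusted p = 0.182) and does not check the labels. The summed level of 4 Y-linked genes was between 6766 and 7998 normalized counts in WT libraries, 6810 in DKO replicate 3 and at most 79.9 in the other DKO libraries, which carried 18029 to 27043 normalized counts of Xist. Values from the libraries with Y-linked transcripts, 4 WT and 1 DKO, are therefore given beside the results of the 10 genes. They are log2FC values with no test, since 1 DKO library gives no spread among DKO libraries.

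In all, 6 of the 10 genes were lower in DKO and none was higher. Cd48, Cd34, Adgrg1 and Hlf fell to between 22.9% and 36.4% of the WT mean and were called, for which adjusted p had to be under 0.05 and log2FC beyond 1 in size. Runx1 and Myb fell to 62.6% and 69.0% of the WT mean, past the same p but not the same fold. In Meis1, Hmga2, Mecom and Procr the WT and DKO libraries overlapped and no difference passed the test. The 4 genes called lower of 10 stand beside 2.43% of all genes tested called lower, and the 0 called higher beside 6.19% called higher. Without the fold threshold 6 of 10 were lower, beside 10.8% of all genes tested, and 0 were higher, beside 10.7%. In the same 6 genes the highest DKO value lay under the lowest WT value, as it did in 14.6% of all genes tested. The 0 held for DESeq2, which called 1665 of 30070 genes higher, and for an unadjusted p under 0.05, for which no share was taken. The median log2FC was -0.605 for the 10 genes and 0.0324 for all genes tested. Leaving out WT replicate 1, 2 or 4 left 2 genes called (Adgrg1 and Cd48) and 3 past the adjusted p (those and Runx1). Calls over the whole table fell as well. In those 3 fits 258 of 18103, 260 of 17954 and 243 of 18028 genes tested were called lower, in place of 423 of 17378. Unless stated otherwise, levels are normalized counts, scaled to a common effective library size, which compare a gene between libraries and not genes with each other. In bulk RNA, fewer cells of a type and less RNA per cell cannot be told apart.

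**Figure D1:**
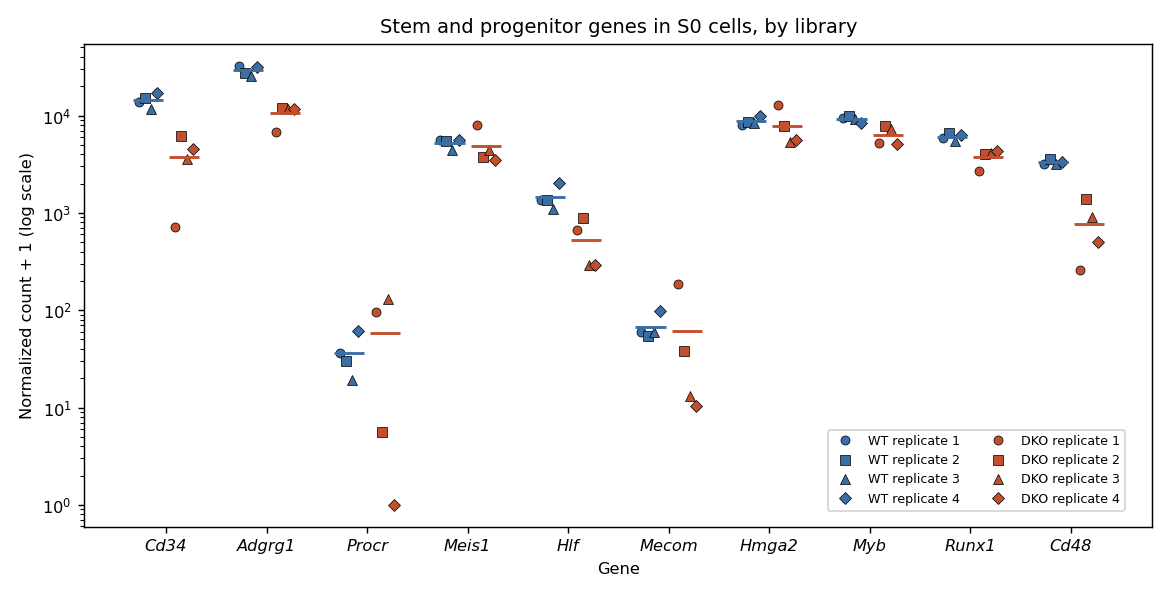
Normalized counts plus 1 (log axis) of the 10 genes in the 4 WT (blue) and 4 DKO (red) libraries, with 1 marker shape per replicate number and a line at each mean. Every DKO library lies below every WT library for Cd34, Adgrg1, Hlf, Myb, Runx1 and Cd48, and DKO replicate 1 is the lowest point for Cd34 (722) and Cd48 (260) but the highest for Hmga2 (12705).

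The sequence just upstream of the start is shown for 3 of the genes that fell, Cd34, Cd48 and Hlf, and for Hmga2, which passed no test, so that the regions can be compared. Each is the 250 bases before the RefSeq start on GRCm38.p6, written in the direction of the gene, and capitals mark matches to 5 motifs searched on both strands. The letters were TGTGGT for the RUNX motif and CGGAAG for the ETS motif. A match to MYB had the letters CAACNG or else those of TAACNG. For GATA the letters AGATAA were taken, as were, for the same motif, those of TGATAA. The letters TGACAG stood for MEIS.
Cd34, chr1:194938571-194938820, plus strand: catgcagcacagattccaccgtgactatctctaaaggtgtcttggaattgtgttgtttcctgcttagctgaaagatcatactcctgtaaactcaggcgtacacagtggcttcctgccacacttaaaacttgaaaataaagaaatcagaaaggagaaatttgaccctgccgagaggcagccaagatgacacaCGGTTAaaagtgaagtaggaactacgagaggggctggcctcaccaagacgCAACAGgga
Cd48, chr1:171681742-171681991, plus strand: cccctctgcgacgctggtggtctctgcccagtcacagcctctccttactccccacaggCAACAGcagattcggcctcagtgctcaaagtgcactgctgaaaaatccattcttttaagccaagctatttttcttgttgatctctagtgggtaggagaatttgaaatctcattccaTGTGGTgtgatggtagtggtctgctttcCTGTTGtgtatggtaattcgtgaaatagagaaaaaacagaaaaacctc
Hlf, chr11:90390918-90391167, minus strand: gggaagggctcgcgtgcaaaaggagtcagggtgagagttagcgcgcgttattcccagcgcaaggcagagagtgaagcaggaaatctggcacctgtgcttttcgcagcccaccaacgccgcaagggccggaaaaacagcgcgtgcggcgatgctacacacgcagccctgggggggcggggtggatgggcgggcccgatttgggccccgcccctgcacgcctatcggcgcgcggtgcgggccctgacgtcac
Hmga2, chr10:120476470-120476719, minus strand: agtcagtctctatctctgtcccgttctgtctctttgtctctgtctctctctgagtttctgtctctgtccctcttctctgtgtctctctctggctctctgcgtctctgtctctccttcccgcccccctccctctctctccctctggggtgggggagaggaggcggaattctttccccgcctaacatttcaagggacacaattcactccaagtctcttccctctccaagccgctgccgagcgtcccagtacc
The Cd34 window holds 2 MYB matches, the Cd48 window 1 RUNX and 2 MYB matches, and the Hlf and Hmga2 windows none. Over the 13 windows of the 10 genes, since Adgrg1, Mecom and Runx1 have a pair each, MYB letters occurred in 5 and RUNX letters in 2. Of all 32851 windows of this length, 43.1% held a MYB match and 14.0% a RUNX match. ETS letters occurred in 3 of the 13 windows (13.6% of all windows), GATA letters in 1 (16.6%) and MEIS letters in 1 (15.9%), and no 2 matches overlapped. Base composition varied among the genes: the G and C share was 46.4% in the Cd34 window and 46.0% in the Cd48 window, below the median of 52.4%, but 67.2% in the Hlf window with 26 CpG and 81.2% in the Myb window with 40 CpG, against a median of 6 CpG. In the annotation, 239 of the 250 bases of the Cd48 window are also exon of A630035G10Rik on the opposite strand, 2 bases of the Cd34 window are exonic, and the Hlf and Hmga2 windows lie outside annotated genes.

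Of the surface proteins, Cd48 had the lowest share of the WT mean left. It encodes a ligand of the SLAM family receptors and lies on chromosome 1 from 171682009 to 171705258, plus strand (ENSMUSG00000015355.13, GRCm38). It had 3168, 3569, 3179 and 3334 normalized counts in WT replicates 1 to 4 and 260, 1381, 900 and 496 in DKO replicates 1 to 4. The WT libraries lay close together and every DKO library was far below them, with DKO replicate 1 at the bottom. The WT mean was 3312 ± 187 and the DKO mean 759 ± 492 (± SD, n = 4 each), and log2FC was -2.13 (SE 0.42, edgeR adjusted p = 0.00902). With every DKO library below every WT library, the exact two-sided permutation test gave p = 0.0286, the smallest that 4 against 4 allow, and the same holds for each of the 6 genes that were lower. The log2FC was -1.90 among libraries with Y-linked transcripts and -1.84 without DKO replicate 1.

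Cd34 encodes a sialomucin that stem cells, progenitors and endothelium carry (ENSMUSG00000016494.9, chromosome 1 from 194938819 to 194961279, plus strand). The WT libraries had 13701, 14958, 11776 and 16838 normalized counts and the DKO libraries 722, 6171, 3589 and 4492. DKO replicate 1 stood far below the other DKO libraries, which in turn did not reach the lowest WT library. The means were 14318 ± 2129 and 3744 ± 2281 (± SD, n = 4 each) and log2FC was -1.94 (SE 0.49, edgeR adjusted p = 0.0229). Without DKO replicate 1 the log2FC was -1.59 (SE 0.19, edgeR adjusted p = 0.00143), and among libraries with Y-linked transcripts it was -2.01. The call was lost without WT replicate 1, 2 or 4, at adjusted p = 0.059, 0.0578 and 0.0643, with log2FC values of -1.95, -1.91 and -1.85.

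Adgrg1 encodes an adhesion G protein-coupled receptor, also called GPR56, that is high on stem cells (ENSMUSG00000031785.16, chromosome 8 from 94974751 to 95014217, plus strand). It had 32323, 27239, 25458 and 31693 normalized counts in WT against 6744, 12010, 11636 and 11578 in DKO. DKO replicates 2 to 4 were nearly equal and DKO replicate 1 was lower still. The means were 29178 ± 3357 and 10492 ± 2506 (± SD, n = 4 each) and log2FC was -1.48 (SE 0.18, edgeR adjusted p = 0.0019), and the value was -1.31 without DKO replicate 1 and -1.34 among libraries with Y-linked transcripts. Of the 10 genes it had the smallest adjusted p, and it kept the call in each fit that left out 1 library.

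Procr, which encodes the endothelial protein C receptor, EPCR, was scarce (ENSMUSG00000027611.12, chromosome 2 from 155751117 to 155755471, plus strand). The raw counts were 34, 34, 21 and 68 in WT and 90, 4, 107 and 0 in DKO. DKO replicates 1 and 3 were above the highest WT library, and replicates 2 and 4 were below the lowest. The log2FC was 0.69 with an SE of 1.18 (edgeR adjusted p = 0.72), too wide an error to show a difference in either direction. Among libraries with Y-linked transcripts, where the DKO library is replicate 3, it was 1.86.

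Among the transcription factors, Hlf had the lowest share of the WT mean left. This PAR bZIP factor lies on chromosome 11 from 90336536 to 90390895, minus strand (ENSMUSG00000003949.16). It had 1354, 1344, 1095 and 2028 normalized counts in WT against 662, 875, 288 and 294 in DKO. DKO replicates 3 and 4 were the lowest, unlike Cd34 and Cd48, for which replicate 1 was. The means were 1456 ± 400 and 529.7 ± 289 (± SD, n = 4 each) and log2FC was -1.46 (SE 0.37, edgeR adjusted p = 0.0232). The call was lost without WT replicate 1, 2 or 4 (adjusted p = 0.0593, 0.055 and 0.0757, log2FC values -1.49, -1.48 and -1.26), and among libraries with Y-linked transcripts the log2FC was -2.35. Hepatocytes also express Hlf. Alb, the albumin gene of hepatoblasts, was at 81282 to 115537 normalized counts in WT and at 43449, 75095, 17211 and 54278 in DKO. Among DKO libraries both genes were lowest in replicate 3 and highest in replicate 2. In replicate 4, however, Hlf was nearly as low as in replicate 3 while Alb was above its replicate 1 value. The part of hepatoblast RNA in the Hlf result was not tested.

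Runx1 and Myb fell by less. Runx1 (ENSMUSG00000022952.16, chromosome 16 from 92601466 to 92826149, minus strand) had 5832, 6636, 5408 and 6296 normalized counts in WT against 2709, 4017, 4103 and 4309 in DKO, with means of 6043 ± 537 and 3785 ± 728 (SD, n = 4 each). Its log2FC was -0.68 (SE 0.14, edgeR adjusted p = 0.0119), and it stayed past the adjusted p with each library left out. Myb (ENSMUSG00000019982.15, chromosome 10 from 21124935 to 21160984, minus strand) had 9414, 9797, 9140 and 8393 in WT and 5255, 7712, 7251 and 5140 in DKO, with means of 9186 ± 593 and 6339 ± 1333 (SD, n = 4 each). In both genes the groups were apart, by a narrow gap in Myb, where the highest DKO library had 7712 and the lowest WT library 8393. The Myb log2FC of -0.54 (SE 0.14, edgeR adjusted p = 0.0255) was past the threshold by little: the adjusted p was 0.0508 to 0.0783 without any 1 of the WT libraries, 0.0601 without DKO replicate 4 and 0.053 with upper-quartile scaling. Among libraries with Y-linked transcripts the log2FC was -0.36 for Myb and -0.58 for Runx1.

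Meis1 and Hmga2 gave another pattern, with DKO replicate 1 above every WT library and the other DKO libraries below every one. Meis1, a homeobox factor (ENSMUSG00000020160.18, chromosome 11 from 18879817 to 19018985, minus strand), had 5568, 5435, 4422 and 5618 normalized counts in WT against 7950, 3722, 4414 and 3460 in DKO. Hmga2, an architectural chromatin protein (ENSMUSG00000056758.14, chromosome 10 from 120361275 to 120476469, minus strand), had 7993, 8655, 8395 and 9772 in WT and 12705, 7731, 5318 and 5636 in DKO. Over all libraries the log2FC values were -0.11 for Meis1 (SE 0.24, edgeR adjusted p = 0.791) and -0.15 for Hmga2 (SE 0.25, edgeR adjusted p = 0.709). Without DKO replicate 1 both passed the adjusted p, Meis1 at -0.44 (SE 0.11, edgeR adjusted p = 0.0217) and Hmga2 at -0.48 (SE 0.13, edgeR adjusted p = 0.033). In that fit 8 of the 10 genes were past the adjusted p and lower. The share of all genes past it there was not taken, so this count has no background beside it. For Meis1 and Hmga2 the library left out was the only DKO library above WT, so their p-values there are no separate support. With any other library left out neither gene passed, at log2FC values of -0.187 to 0.0309 for Meis1 and -0.188 to 0.00258 for Hmga2. Among libraries with Y-linked transcripts, which leave out DKO replicate 1, Hmga2 was at -0.73 and Meis1 at -0.27.

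Mecom, the zinc finger factor EVI1, was also scarce (ENSMUSG00000027684.16, chromosome 3 from 29951296 to 30548008, minus strand). It had 58.6, 53.4, 58.2 and 97.0 normalized counts in WT against 184, 37.2, 12.2 and 9.4 in DKO. As for Meis1 and Hmga2, DKO replicate 1 was above every WT library and the other 3 DKO libraries were below every one. The log2FC was -0.14 with an SE of 0.85 (edgeR adjusted p = 0.928), and it was -1.75 without DKO replicate 1 (SE 0.58, edgeR adjusted p = 0.0597) and -2.46 among libraries with Y-linked transcripts. For the 4 genes whose groups overlapped, the exact two-sided permutation test gave p = 0.6 for Procr, 0.486 for Meis1, 0.4 for Hmga2 and 0.314 for Mecom.

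**Figure D2:**
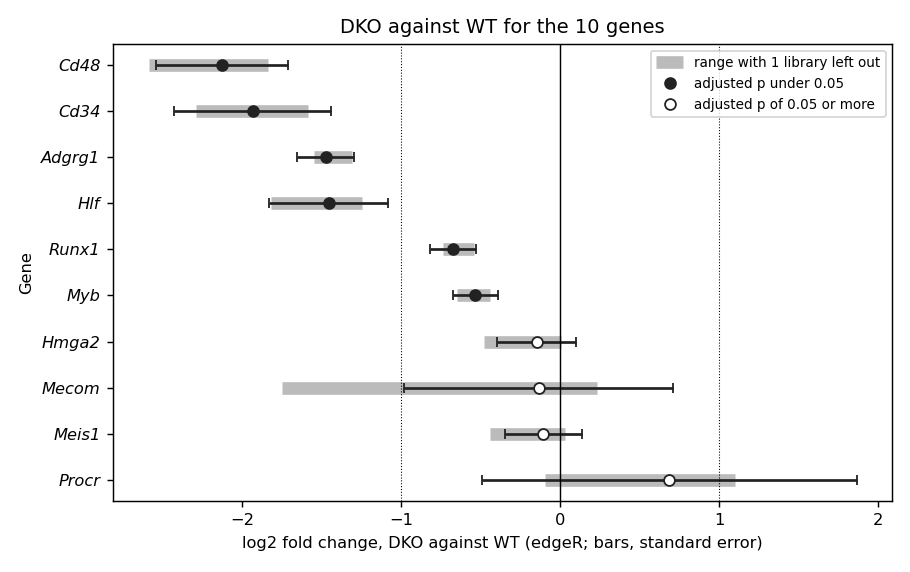
The log2 fold change of DKO against WT for the 10 genes with its SE (filled points, adjusted p under 0.05) and, in grey, the range when 1 library at a time was left out. The grey bars of the 6 lower genes stay below 0, while those of Hmga2, Mecom, Meis1 and Procr reach both sides of it; dotted lines mark the fold threshold of 1.

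The DKO libraries differed from each other more than the WT libraries did. The coefficient of variation was larger in DKO than in WT for all 10 genes, as it was for 75.2% of all genes tested. It was 5.65% in WT and 64.8% in DKO for Cd48, 14.9% and 60.9% for Cd34, and 8.88% and 19.2% for Runx1. Set against the WT mean on the log2 CPM scale, DKO replicate 1 was at -4.30 for Cd34, -3.67 for Cd48, -2.11 for Adgrg1 and -1.15 for Runx1, the lowest of the DKO libraries for these 4 genes, and at 0.60 for Meis1, 0.55 for Hmga2 and 1.49 for Mecom, the highest. For these 3 genes the lowest values were in DKO replicate 4 for Mecom (-2.66) and Meis1 (-0.60) and in DKO replicate 3 for Hmga2 (-0.71). DKO replicate 2 was nearest to WT for Cd34 (-1.20), Adgrg1 (-1.27), Hlf (-0.70), Myb (-0.25) and Cd48 (-1.26).

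**Figure D3:**
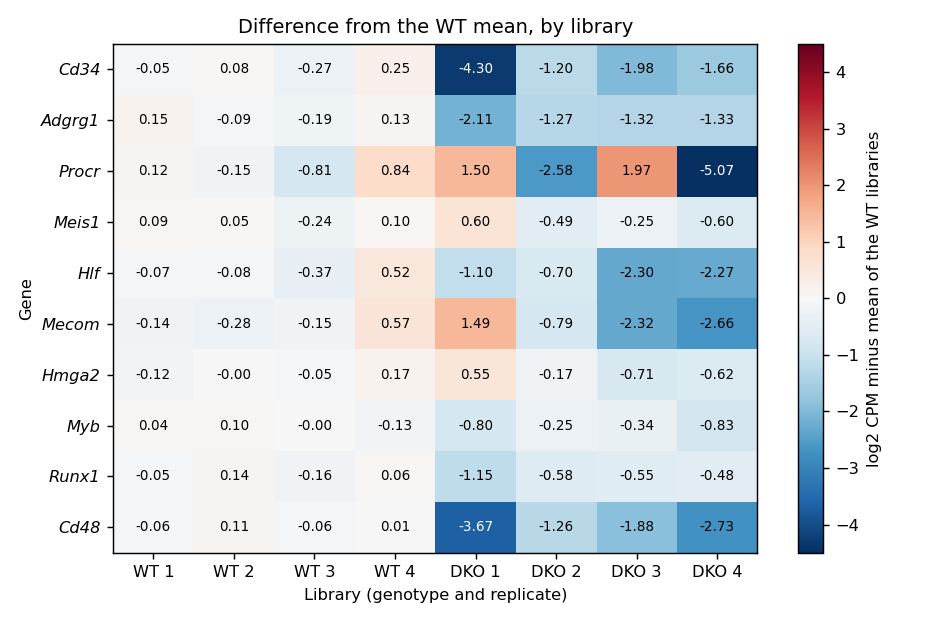
Difference of each library from the mean of the WT libraries (log2 CPM, colour and printed value) for the 10 genes in rows and the 8 libraries in columns. WT values lie between -0.81 and 0.84, Cd34 and Cd48 are lowest in DKO replicate 1 (-4.30 and -3.67), and Meis1, Mecom and Hmga2 are above the WT mean only in that DKO library (0.60, 1.49 and 0.55).

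Likeness of pattern was measured as the root mean square difference over the 8 libraries, after each gene was set relative to its WT mean on the log2 scale, so that a smaller value is a closer pattern. Among the 10 genes the closest pairs were Meis1 and Hmga2 (0.227), Myb and Runx1 (0.243) and Cd34 and Cd48 (0.456). Among 11583 protein-coding genes with a mean of at least 100 normalized counts, the 3 closest to Cd34 were Bex6 (0.153), Cd93 (0.171) and Themis2 (0.182). The closest to Adgrg1 were Tnfaip8l2 (0.0839), Alas1 (0.0961) and Akna (0.123), and those closest to Cd48 were Il12rb2 (0.287), Cd27 (0.3) and Tespa1 (0.301). The closest to Hlf were Idi1 (0.267), Crp (0.314) and Slc36a2 (0.326). The 8 libraries are shared by all these genes, and the values are descriptions with no test.

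Levels of different genes were compared per length, in TPM, for which counts were divided by the exon length of the gene and set against the sum of such values in the library. On this scale the order in WT was Adgrg1 (344 ± 43.7), Cd48 (178 ± 12.4), Cd34 (126 ± 20.3), Hmga2 (82.1 ± 7.62), Myb (65.7 ± 4.75), Runx1 (32.1 ± 3.37), Meis1 (31.9 ± 3.95), Hlf (13.9 ± 3.94), Procr (1.12 ± 0.556) and Mecom (0.343 ± 0.106; SD, n = 4). Of neighbours in this order, only Runx1 and Meis1 overlapped in WT. In DKO the order was Adgrg1 (112 ± 22.6), Hmga2 (69.0 ± 34.3), Myb (41.4 ± 7.42), Cd48 (36.7 ± 23.0), Cd34 (29.5 ± 17.6), Meis1 (27.6 ± 13.5), Runx1 (18.3 ± 2.81), Hlf (4.68 ± 2.58), Procr (1.68 ± 1.88) and Mecom (0.301 ± 0.427; SD, n = 4). By their means Cd48 and Cd34 stood above Hmga2 and Myb in WT and below them in DKO, but in DKO every pair of neighbours overlapped except Runx1 and Hlf. Adgrg1 was the highest of the 10 in both genotypes, above 97.0% of genes tested in WT and 91.2% in DKO by mean TPM, whereas Procr and Mecom were above 21.0% and 8.08% in WT.

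Another 5 lists of stem and progenitor genes were examined in the same fit, and 122 of their genes were tested. Of these, 21 were called lower and 8 higher, with a median log2FC of -0.272. Of all genes tested, 2.43% were called lower and 6.19% higher, with a median of 0.0324. The 8 of 122 called higher are near the share of all genes. Counts below at an unadjusted p under 0.05 have no share of all genes beside them. The lists were written with results of these data known, and 21 of their 130 genes also stand in a list of markers of another cell type. With upper-quartile scaling the same genes gave 13 called lower and 9 higher. Over all genes tested that scaling gave 325 lower and 1228 higher, in place of 423 and 1076.

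Of the stem and progenitor surface proteins, 7 of 19 tested were called lower (among them Kit, Pecam1, Cd93, Flt3, Ptprc and Cd27) and 0 higher, and the median was -0.769. Ptprc encodes CD45, whose B220 form was used in the sort to remove cells. Kit, the receptor of stem cell factor, had 9598, 9211, 7287 and 8958 normalized counts in WT against 3795, 4436, 4871 and 3162 in DKO (log2FC -1.11, SE 0.14, edgeR adjusted p = 0.00239). Pecam1, an adhesion protein shared with endothelium, was at a log2FC of -1.14 (edgeR adjusted p = 0.0126). Cd93, a C-type lectin-like receptor, had 2671, 2591, 2216 and 3266 in WT and 183, 1059, 687 and 883 in DKO (log2FC -1.93, SE 0.42, edgeR adjusted p = 0.0131). In Kit the DKO libraries lay together, whereas in Cd93 DKO replicate 1 was far below the others, as in Cd34.

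Of the transcription factors, 2 of 30 were called lower (Erg and Ikzf2) and 2 higher (Hoxa5 and Hoxb4), and the median was -0.308. The 2 called higher stand beside 6.19% of all genes tested, a share close to theirs. Erg, an ETS factor needed for stem cell maintenance, had 705, 519, 587 and 976 normalized counts in WT against 89.3, 252, 184 and 205 in DKO (log2FC -1.93, SE 0.33, edgeR adjusted p = 0.00563). Ikzf2, of the Ikaros family, was at -1.06 (edgeR adjusted p = 0.00531). Hoxb4, a homeobox factor, had 26.2, 14.6, 26.9 and 58.6 in WT and 646, 101, 83.0 and 84.6 in DKO (log2FC 2.85, edgeR adjusted p = 0.0322), and it was at 1.51 without DKO replicate 1 (edgeR adjusted p = 0.0541) and not past the threshold without any 1 of the WT libraries (adjusted p 0.0517 to 0.0928). Hoxa5 was at 2.70 (edgeR adjusted p = 0.0239), with overlapping groups, and was not past the threshold without WT replicate 1, 2 or 4 (adjusted p 0.0616 to 0.0781, log2FC values 2.41 to 2.58). Its value was 3.43 without WT replicate 3.

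In the fetal program list, to which Hmga2 belongs by function, 1 of 16 tested was called lower (Dnmt3b), 2 higher (Cdkn1c and Plagl1), and the median was -0.175. Dnmt3b, a de novo DNA methyltransferase, had 9196, 10280, 9744 and 9940 normalized counts in WT against 2700, 6312, 5796 and 3729 in DKO (log2FC -1.08, edgeR adjusted p = 0.0126). Cdkn1c, the cell cycle inhibitor p57, was at 1.49 (edgeR adjusted p = 0.0114). Plagl1, an imprinted zinc finger gene, had 187 to 286 in WT and 6650, 892, 839 and 872 in DKO (log2FC 3.22, edgeR adjusted p = 0.0141), and was at 1.81 without DKO replicate 1 (edgeR adjusted p = 0.000595).

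Relatives and partners of the 10 genes went both ways, with 4 of 27 called lower (Adgrg3, Runx2, F2r and Slamf6), 4 higher (Meis2, Meis3, Podxl2 and Col3a1) and a median of 0.181. Runx2, a paralog of Runx1, had 442, 624, 575 and 458 normalized counts in WT against 78.8, 215, 131 and 216 in DKO (log2FC -1.71, SE 0.33, edgeR adjusted p = 0.00844). F2r, a thrombin receptor, was at -1.05 (edgeR adjusted p = 0.00653). Slamf6, a neighbour of Cd48 in the SLAM family, had 95 raw counts in the 4 WT libraries and 2 in the 4 DKO libraries, a ratio of 0.0259 (95% exact counting interval 0.00309 to 0.0961) after scaling. The interval covers counting error only and not the spread between libraries. Col3a1, a collagen that binds Adgrg1, had 638, 283, 1083 and 889 in WT and 11974, 2613, 3117 and 4952 in DKO (log2FC 2.97, edgeR adjusted p = 0.00759). It was at 2.30 without DKO replicate 1 (edgeR adjusted p = 0.00986) and is also a mesenchymal gene.

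Of the effectors of multipotent and erythroid progenitors, 7 of 30 were called lower (Angpt1, Gcnt2, Fgd5, Mpo, Elane, Cpa3 and Ctsg) and 0 higher, with a median of -0.351. Mpo, Elane and Ctsg encode granule proteins of myeloid progenitors, and Cpa3 one of mast cells. Mpo had 109156, 111349, 91281 and 120802 normalized counts in WT against 3829, 36256, 24386 and 27520 in DKO (log2FC -2.23, SE 0.52, edgeR adjusted p = 0.0165). Angpt1, a ligand of the Tie2 receptor, was at -1.09 (edgeR adjusted p = 0.00782), Gcnt2, a glycosyltransferase, at -1.65 (edgeR adjusted p = 0.0124) and Fgd5, expressed in stem cells and endothelium, at -1.11 (edgeR adjusted p = 0.0139). At an unadjusted edgeR p under 0.05, 0 surface proteins and 3 effectors were higher. DESeq2 called 0 higher in both lists, beside 1665 of 30070 genes.

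**Figure D4:**
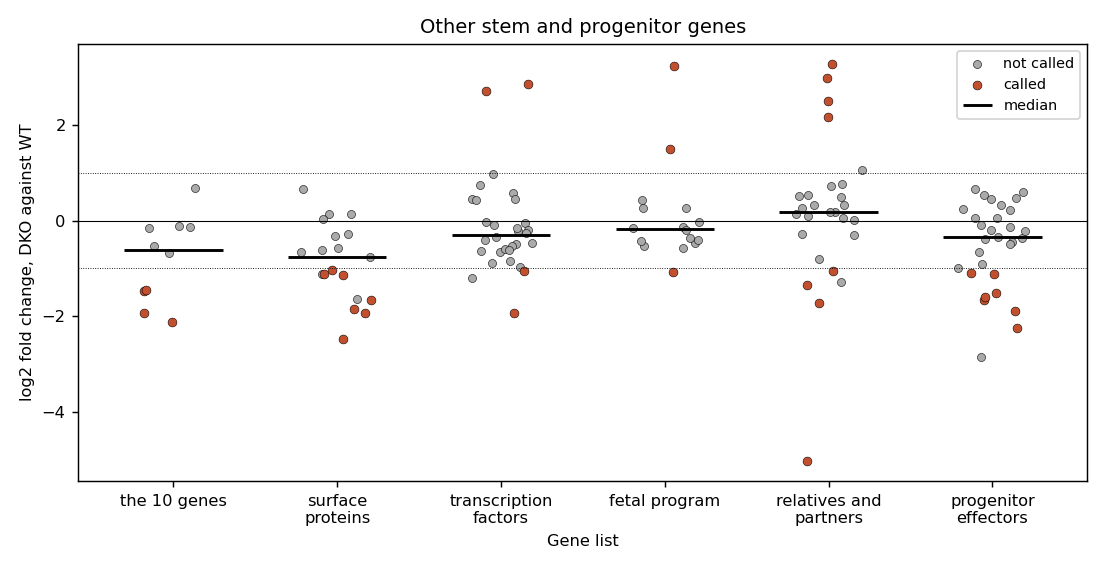
The log2 fold change of DKO against WT for the 10 genes and for the tested genes of 5 other lists, 1 point per gene, with a line at each median and the called genes in red. The medians are -0.605 for the 10 genes, -0.769 for surface proteins, -0.308 for transcription factors, -0.175 for the fetal program, 0.181 for relatives and partners, and -0.351 for progenitor effectors; dotted lines mark the fold threshold of 1.

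Markers of other cell types are given for each list as a sum of normalized counts. The numbers of markers called stand beside 2.43% of all genes tested called lower and 6.19% called higher. The study describes most S0 cells as erythroid precursors. Erythroid markers, of which Car2 and Klf1 were highest, summed to 66165 to 73270 in WT and 54174 to 92944 in DKO, with 0 of 16 called by edgeR or DESeq2. Without the fold threshold 2 of the 16, among them Epor (log2FC 0.47), passed the edgeR adjusted p and were higher in every DKO library than in any WT library. That is close to the shares of all genes tested, 10.7% past the adjusted p and higher and 13.5% with every DKO library above every WT library. At an unadjusted edgeR p under 0.05, 3 were higher, a count with no share of all genes beside it. Neutrophil and myeloid markers, led by Mpo and Prtn3, summed to 107141 to 140017 in WT and to 5798, 46963, 32335 and 36184 in DKO, with 6 of 12 tested called lower and Ly6g at 0 in every library. This sum was lowest in DKO replicate 1, as Cd34 and Cd48 were. Most of it was Mpo, already given among the effectors, with 91281 to 120802 in WT and 3829, 36256, 24386 and 27520 in DKO. Mast cell and basophil markers (Kit and Gata2 highest) summed to 16661 to 22872 in WT and 7747 to 12965 in DKO with Fcer1a at 0, and lymphoid markers (Ptprcap and Notch1 highest) to 10030 to 11874 and 5334 to 8947 with Cd8a at 0. Macrophage markers (Vcam1 and Csf1r highest) were at 5138 to 7701 and 1485 to 4577 with Vsig4 at 0. Called lower were 2 of 6 mast cell and basophil markers tested, 2 of 10 lymphoid markers and 1 of 12 macrophage markers, and 0 were called higher. The 2 of the mast cell list, Kit and Cpa3, are already counted in the lists above. Among the genes of the marker lists, Itgam (CD11b), Ly6g, Il7r (CD127), Cd3e, Cd4, Cd8a and Tfrc (CD71) encode proteins used in the sort. The part of the sort in their values was not tested. The part of these lists in the values of Cd34, Cd48 and Adgrg1 was not tested either.

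Endothelium also makes Cd34 and Procr. Its markers, of which Egfl7 and Eng were highest, summed to 18078 to 20356 in WT and to 11685, 16468, 16211 and 18800 in DKO, with 2 of 19 tested called lower (Pecam1 and Sox18). Egfl7 alone made up 6932 to 12906 of these counts and was at a log2FC of 0.06, whereas the median log2FC of the list was -0.769. Without the fold threshold 4 of the 19 passed the edgeR adjusted p, all lower, beside 10.8% of all genes tested. In 7 the groups were apart with DKO below, beside 14.6% of all genes tested. The part of these markers in the Cd34 values was not tested. Mesenchymal and stellate markers, led by Col1a1 and Col1a2, summed to 6811 to 10511 in WT and to 55264, 18867, 17985 and 26387 in DKO, with 12 of 16 called higher and none at 0. DKO replicate 1, with the largest mesenchymal sum, was the library with the largest values of Meis1, Hmga2 and Mecom among the DKO libraries and of Hoxb4 and Plagl1, and the part of that sum in these values was not tested. Hepatoblast markers (Afp and Alb highest) summed to 538413 to 742750 in WT and to 434268, 649609, 182505 and 559774 in DKO, with 0 of 16 called by edgeR, 2 called lower by DESeq2 and 6 lower at an unadjusted edgeR p under 0.05. DESeq2 called 619 of 30070 genes lower, and the share of all genes at the unadjusted p was not taken. Megakaryocyte markers (Pf4 and Itga2b highest) were at 71097 to 85843 in WT and 50384 to 145143 in DKO, with 1 of 16 called lower.

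**Figure D5:**
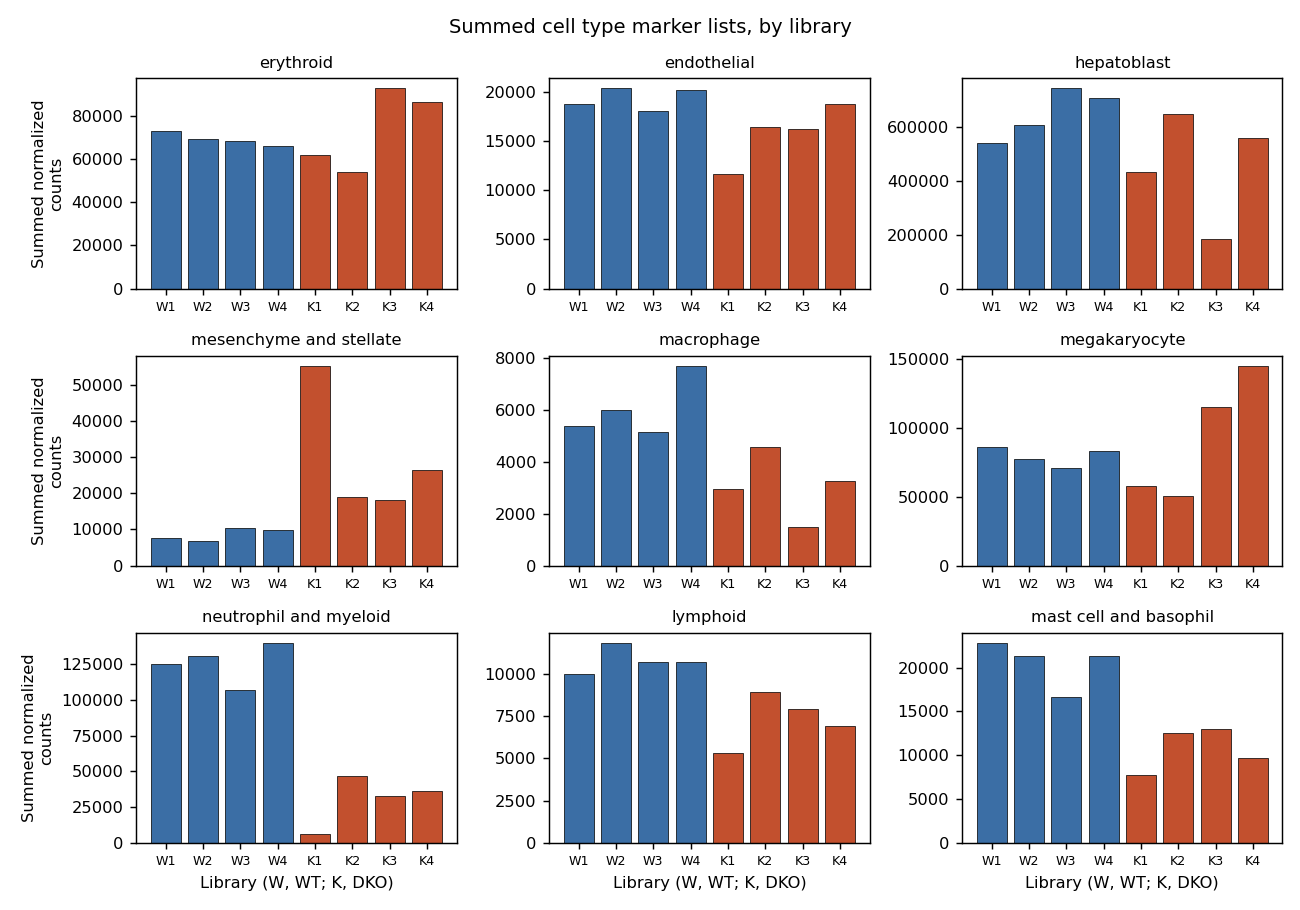
Summed normalized counts (linear axes from 0) of 9 cell type marker lists in the 4 WT libraries (W, blue) and the 4 DKO libraries (K, red), 1 panel per list. The neutrophil and myeloid sum is lower in every DKO library and lowest in replicate 1 (5798), and the mesenchymal sum is higher in every DKO library and highest in replicate 1 (55264).

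Other genes share exon bases with 6 of the 10 genes, and since the sources used here do not say whether counting used strand, reads over those bases cannot be told apart. The shared bases were 9.8% of the exon bases of Meis1 with Gm37818 on the same strand and 8.5% with Gm16140, 6.3% of Myb with Gm26577, 2.1% of Hmga2 with 1700006J14Rik, 2.0% of Cd34 with Gm16897, 0.9% of Runx1 with Gm26626 and 0.7% of Mecom with Mecomos. Of these genes 1700006J14Rik had 1400 normalized counts on average in WT and 1130 in DKO, and the others had at most 118.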

How the data were processed

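Gene counts of S0 cells were analysed for 4 WT and 4 DKO libraries, grouped by the sample labels. The authors trimmed the reads with fastp 0.21.0, mapped them with HISAT2 2.2.1 to mm10, the build of the coordinates here (GRCm38), and made the deposited counts with StringTie 1.3.3b and its prepDE script; the counts are whole numbers per gene that had not been normalized or pooled, and they are worked back from coverage, so that totals can differ from read numbers. Symbols and exon lengths came from GENCODE M21, and 52489 of 52636 identifiers had a symbol.

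Counts were analysed with R 4.3.3 and edgeR 4.0.16 (filterByExpr, TMM scaling, robust quasi-likelihood test, Benjamini-Hochberg adjustment over 17378 genes, no covariate). The SE of a log2FC was worked back from that test, as the size of the log2FC divided by the square root of its F statistic. Log2 CPM used a prior count of 1, and exact two-sided permutation tests ran over 70 arrangements. The 10 genes and all lists were chosen with earlier results of these data known. Named from each list were up to 4 called genes with the smallest p, and from each marker list the 2 highest. Other genes called in a list were named after their values were seen. Some genes of the lists are counted but not reported by name here.

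Alternatives were DESeq2 1.42.0, other scalings and filters, protein-coding genes only, counts divided by 2, removal of hemoglobin genes, each library left out, a replicate block, and libraries with Y-linked transcripts only. The steps were also run on simulated counts with 1 common spread for all genes and both genotypes. That run does not test the larger spread of the DKO libraries seen here. No pair of libraries was a duplicate: chi-square per gene was at least 18.27. At these totals the spread between libraries, not counting error, limited precision for the abundant genes, while Procr and Mecom rest on few counts. Promoter windows are from RefSeq (GRCm38.p6). Marker lists shared genes with other lists.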

Additional observations from a re-analysis of the deposited data

Results flagged for a closer look

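Values that stood apart from the other libraries of their genotype were sought in 94 groups of 4 libraries (47 genes) with Dixon's test at the critical ratio for 4 values at the 95% level, and 7 groups passed. Chance gives about 1 in 20. Adgrg1 had 6744 normalized counts in DKO replicate 1, below 11578 to 12010 in the other DKO libraries. Mecom had 184 in DKO replicate 1, above 9.4 to 37.2, and 97.0 in WT replicate 4, above 53.4 to 58.6. Meis1 had 4422 in WT replicate 3, below 5435 to 5618. Hoxb4 had 646 in DKO replicate 1, above 83.0 to 101. Plagl1 had 6650 there, above 839 to 892. Slamf6 had 2.1 there, from 2 raw counts, and 0 in the other DKO libraries, a case in which any count would have passed. Of the other 6, 4 were in DKO replicate 1.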

How the results depend on the processing

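The number of the 10 genes called lower, 4, ranged from 2 to 4 with 1 library left out, and the number past the adjusted p from 3 to 8. Of all genes tested, 243 to 521 were called lower in those fits, in place of 423, and the share past the adjusted p was not taken. Genes of the 5 lists called lower numbered 13 with upper-quartile scaling and 14 to 21 with 1 library left out, in place of 21. With upper-quartile scaling 325 of all genes tested were called lower, in place of 423. Those called higher numbered 5 with DESeq2, 4 among libraries with Y-linked transcripts, where DKO has 1 library and the spread is that of WT, and 5 to 9 with 1 library left out, in place of 8 (5 without WT replicate 1, 2 or 4). Of all genes tested, 1665 of 30070 were called higher with DESeq2, in place of 1076 of 17378, and 566 to 1148 with 1 library left out. The cause of these shifts was not tested. Upper-quartile scaling moved the median log2 fold change of all genes from 0.032 to 0.14, and Meis1 to 0.00859. Signs turned for genes that passed no test: Procr was at -0.605 with the replicate block and between -0.0983 and 1.10 with 1 library left out (1.86 among libraries with Y-linked transcripts), Meis1 between -0.443 and 0.0309, Mecom between -1.75 and 0.23 and Hmga2 between -0.478 and 0.00258, and Vps13c was at -0.192 among libraries with Y-linked transcripts. No call reversed. A minimum of 10 counts in all libraries gave no value for Procr and Mecom. Without the low-count filter Cd34 had an adjusted p of 0.0522. Same-numbered WT and DKO libraries did not deviate together (correlations -0.0893, 0.0433, -0.0206 and -0.00748), so the numbers are not read as pairs; with the replicate block 4 genes were called and 6 passed the adjusted p. With the block 18 genes of the 5 lists were called lower and 7 higher, in place of 21 and 8. Over all genes tested 343 were called lower and 613 higher, in place of 423 and 1076. Of the list genes given with values, Hoxb4 (edgeR adjusted p = 0.0836) and Fgd5 (0.0605) lost the call. Among libraries with Y-linked transcripts the log2 fold change was -0.707 for Ikzf2, -0.724 for Fgd5, 0.801 for Cdkn1c, 1.38 for Hoxb4 and 1.74 for Plagl1, with no test read from 1 DKO library.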
